A study of Mus musculus with 12 samples.

Results

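The p53 gene Trp53, its target Cdkn1a and 28 further genes listed as p53 targets or partners were followed across thymic epithelial cells with and without HOIL-1. The 30 members were chosen by symbol and matched to Entrez identifiers, and 30 of 30 were found among the 27179 counted genes. All 30 passed the filter on low counts and stood among the 19398 genes tested.

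RNA was sequenced from 12 bulk libraries of sorted mouse thymic epithelial cells (TEC), 3 per group. Cortical TEC (cTEC), which carry Ly51, and medullary TEC with high MHC class II (mTEChi), which bind the lectin UEA1, each came from control and HOIL-deficient mice. HOIL-1, encoded by Rbck1, is part of LUBAC, an enzyme complex that joins ubiquitin in linear chains. Controls were C57BL/6 mice of the genotype Foxn1cre+/+ Hoillox/lox, which lack the Cre transgene and carry the floxed alleles. HOIL-deficient mice were C57BL/6 mice of the genotype Foxn1creT/+ HOILlox/lox, in which Cre under Foxn1, a gene of the TEC lineage, deletes Hoil in TEC. Both groups therefore shared the floxed alleles and differed also by the Cre transgene itself. Ages were not given. The labels call 10 libraries male and 2 female, and both female libraries are replicate 3 of a HOIL-deficient group. Nothing in the labels says that replicates came from separate mice, and p values then reflect only the spread of these samples.

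p53 is a transcription factor that is held low by the ubiquitin ligase Mdm2 and accumulates after DNA damage, nucleolar stress or oncogene activity. It binds paired half-sites in DNA and raises genes that stop the cell cycle (Cdkn1a, which encodes the CDK inhibitor p21), promote apoptosis (Bbc3, Pmaip1, Perp, Fas), limit growth and oxidative stress (Sesn1, Sesn2) or repair DNA (Polk, Ercc5). Through p21 it lowers cell division genes indirectly, since p21 keeps the DREAM repressor complex assembled on their promoters. In thymic epithelium p53 is known to support the medulla.

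p53 half-sites were counted in the member promoters. The members were listed as p53 targets or partners, so a share above that of promoters at large cannot be read as a result of these libraries. RefSeq windows (GRCm38.p6) of 300 bases, from 250 before to 50 after an annotated start, were at hand for 24 members (33 windows). The p53 half-site pattern, which reads the same on both strands, occurred exactly in 11 of 33 member windows (33.3%), against 2745 of 32851 windows overall (8.36%). The 10 members with such a window were Trp53, Cdkn1a, Mdm2, Sesn1, Aen, Gtse1, Polk, Ei24, Ddit4l and Ccng1. The windows of Aen overlap and hold the same half-site, which was counted in both. A full site, taken as 20 bases in 2 joined half-sites with at most 1 letter off, occurred in 3 of 33 member windows (9.09%) and in 29 of 32851 windows overall (0.0883%). That definition was set after the Cdkn1a window had been read. A match is a description of the letters and not evidence of binding. These 3 full sites are shown because they are the closest matches among the members; those of Ccng1 and Gtse1 were chosen after their values were seen. All 20 bases are in capitals, and each has 1 letter off the pattern.
Cdkn1a site, chr17:29090928-29090947, plus strand: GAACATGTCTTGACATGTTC
Ccng1 site, chr11:40755462-40755481, minus strand: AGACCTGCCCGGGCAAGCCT
Gtse1 site, chr15:85859945-85859964, plus strand: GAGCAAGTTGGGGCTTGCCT

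The windows below are those of Cdkn1a, the member with the greatest fall in mTEChi, and of the other members called in a HOIL comparison whose window held a match. Capitals mark exact half-sites and, in Cdkn1a, the full site above. The Cdkn1a window belongs to the upstream of its 2 annotated starts, and the window at its downstream start held no match.
Cdkn1a, chr17:29090729-29091028, plus strand: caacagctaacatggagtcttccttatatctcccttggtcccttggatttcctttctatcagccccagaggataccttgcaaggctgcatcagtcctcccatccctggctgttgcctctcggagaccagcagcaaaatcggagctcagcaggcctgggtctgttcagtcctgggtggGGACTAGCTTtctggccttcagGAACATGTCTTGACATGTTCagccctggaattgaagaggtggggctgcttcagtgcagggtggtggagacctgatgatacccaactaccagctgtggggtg
Trp53, chr11:69580109-69580408, plus strand: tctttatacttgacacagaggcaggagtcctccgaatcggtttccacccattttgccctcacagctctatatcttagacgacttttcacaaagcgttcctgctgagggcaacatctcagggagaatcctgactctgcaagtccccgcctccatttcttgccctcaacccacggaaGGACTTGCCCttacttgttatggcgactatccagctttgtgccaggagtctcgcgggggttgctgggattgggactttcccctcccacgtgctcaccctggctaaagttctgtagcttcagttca
Ddit4l, chr3:137623422-137623721, plus strand: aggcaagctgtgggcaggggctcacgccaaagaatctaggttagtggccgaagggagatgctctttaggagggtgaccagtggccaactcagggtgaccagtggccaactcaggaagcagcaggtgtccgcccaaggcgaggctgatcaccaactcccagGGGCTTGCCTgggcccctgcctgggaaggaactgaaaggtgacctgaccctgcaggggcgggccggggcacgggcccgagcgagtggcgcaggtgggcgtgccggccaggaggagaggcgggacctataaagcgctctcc
Ei24, chr9:36797285-36797584, minus strand: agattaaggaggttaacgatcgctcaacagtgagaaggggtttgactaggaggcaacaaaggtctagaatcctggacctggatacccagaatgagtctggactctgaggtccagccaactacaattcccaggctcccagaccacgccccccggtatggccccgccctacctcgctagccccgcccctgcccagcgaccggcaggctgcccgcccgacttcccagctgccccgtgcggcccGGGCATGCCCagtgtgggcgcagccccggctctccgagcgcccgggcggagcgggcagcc
The half-site of Ddit4l begins 90 bases before its start. Cdkn1a, Trp53, Ddit4l and Ei24 each hold a half-site in the windows shown. In HOIL-deficient mTEChi Cdkn1a and Ddit4l were lower and Trp53 and Ei24 higher, as given below. Binding of p53 to these sites was not tested.

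Levels are CPM, the counts of a gene relative to library totals scaled by the trimmed mean of M values (TMM). The values of a group stand in the order of replicates 1, 2 and 3, and groups are called apart where no library of one reaches into the range of the other. Changes are log2 fold changes with an approximate standard error (SE). Adjusted p is the Benjamini-Hochberg value of the edgeR quasi-likelihood test over the 19398 tested genes, and a gene was called below 0.05. Alternatives were other scalings and tools, no low-count filter, males only, a block, fits of the compared groups alone and fits that leave out 1 library. Library totals ran from 7941217 to 14274333 counts.

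The targeted gene was low in every HOIL-deficient library. Rbck1 stood at 186, 236 and 214 CPM in control and 20.8, 31.3 and 20.6 CPM in HOIL-deficient cTEC (-3.13, SE 0.271, adjusted p = 2.8e-05), and at 130.4, 129 and 113 against 11.3, 11.8 and 23.4 CPM in mTEChi (-2.99, SE 0.272, adjusted p = 4.5e-05). The sorted types carried their own markers, and those of cTEC were lower in cTEC without HOIL-1. The 12 cTEC markers summed to 52250 to 69450 CPM in control and 28560 to 30890 CPM in HOIL-deficient cTEC. There 9 of 12 were called lower and none higher (median -0.99). In mTEChi they summed to 3133 to 3676 CPM in control and 3836 to 5048 CPM in HOIL-deficient libraries, without overlap. Of the 12, 4 were called higher in HOIL-deficient mTEChi and 1 lower (41.7% called, against 19.9% of all genes; median 0.55). The 13 markers of mTEChi summed to 10030 to 12050 CPM in cTEC. In mTEChi they summed to 21520 to 29500 CPM in control and 27720 to 35900 CPM in HOIL-deficient libraries, where 2 were called higher and 2 lower. The 9 markers of all TEC summed to 14720 to 15500 CPM in control cTEC and 4268 to 4710 CPM in control mTEChi, where 3 were called higher and 5 lower. Without HOIL-1 they summed to 12030 to 13490 CPM in cTEC and 4599 to 4812 CPM in mTEChi. Other cell types were present at levels that differed between groups. In HOIL-deficient cTEC 19 of 23 thymocyte markers were lower and none higher (summed level 708.6 to 1380 CPM, against 1877 to 6137 CPM in controls, where replicate 1 was highest). There 17 of 20 endothelial markers were higher and 1 lower (238.4 to 647.9 against 55.0 to 110.3 CPM, Erg at 0 in controls). Of 25 fibroblast and pericyte markers 14 were higher (5258 to 6945 against 1094 to 2913 CPM), and of 12 tested adipocyte markers 8 (327.6 to 611.1 against 29.1 to 52.1 CPM). Of the adipocyte markers Plin1 and Lep were at 0 in control cTEC, and Cidea and Lep in HOIL-deficient cTEC. In HOIL-deficient mTEChi 12 of 20 endothelial (399.1 to 981.9 against 194.2 to 264.7 CPM) and 9 of 25 fibroblast and pericyte markers (1842 to 2282 against 815.3 to 914.4 CPM) were higher. There 0 of 23 thymocyte markers were called (median 0.42, summed level 376.6 to 594.5 against 302 to 466.9 CPM). Mitochondrial genes took 3.19 to 8.93% of counts in control mTEChi, with the highest share in replicate 1, and 1.71 to 1.91% in HOIL-deficient mTEChi. In bulk samples such as these, fewer cells of a type and less RNA per cell cannot be told apart, and the part of these differences in the results on p53 targets was not tested.

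The loss of HOIL-1 went with lower RNA of Cdkn1a and 5 other members in mTEChi, higher RNA of Trp53 itself, and a different set of changes in cTEC. In mTEChi 2 members rose (Trp53, Ei24) and 6 fell (Cdkn1a, Sfn, Btg2, Perp, Ddit4l, Phlda3), out of 30. Over all tested genes 19.9% were called in that comparison, 11.3% higher and 8.59% lower. In cTEC 5 members rose (Plk2, Gdf15, Ddit4l, Phlda3, Ei24) and 1 fell (Trp53inp1), where 12.1% of all genes were called, 6.06% higher and 6.02% lower. The difference between the effects, mTEChi minus cTEC, was below 0 for all 8 members that passed its test (Cdkn1a, Sfn, Btg2, Perp, Ddit4l, Phlda3, Plk2, Gdf15) and above 0 for none. Of all genes 9.84% passed that test, 5.97% higher and 3.86% lower.

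The median effect on the members lay near 0 in both cell types. It was 0.10 in cTEC against -0.02 for all genes, and -0.00296 in mTEChi against -0.03. For the difference of the effects it was -0.08 against 0.09. Another scaling of the libraries (RLE factors) shifted the median of all genes by -0.14 in that difference and left the members at 0 higher and 8 lower. Under RLE factors the members in mTEChi stood at 1 higher and 6 lower, and with DESeq2 at 1 higher and 8 lower. Of all genes, 2191 higher and 1667 lower in mTEChi became 2207 and 2556 with DESeq2, and 1159 higher and 749 lower in the difference became 714 and 873 with RLE factors.

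**Figure D1:**
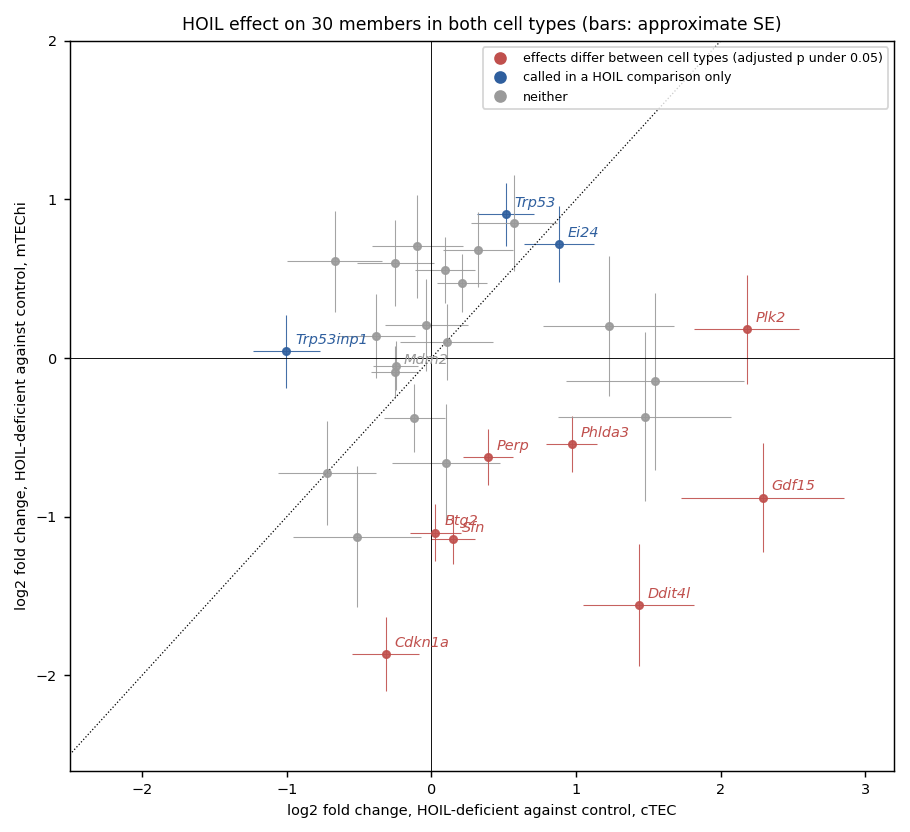
Log2 fold change of HOIL-deficient against control libraries in cTEC (x axis) and in mTEChi (y axis) for the 30 members. Points are genes, bars are the approximate SE, the dotted line marks equal effects, red marks the 8 members whose effects differed between the cell types, blue the other 3 called in a HOIL comparison and grey the rest. The red points all lie below the line, with Cdkn1a lowest on the y axis at -1.87 and Gdf15 and Plk2 farthest right at 2.29 and 2.18.

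Trp53 (Entrez 22059, chr11:69580348-69591873), the p53 gene, rose in HOIL-deficient mTEChi. Its level was 64.7, 111 and 107 CPM in control mTEChi and 205, 172 and 154 CPM in HOIL-deficient mTEChi. The 2 groups did not overlap, and the mean went from 94.3 ± 25.8 to 177 ± 26.2 CPM (SD, n = 3 each; 0.91, SE 0.200, adjusted p = 0.0071). The rise was called under all 12 alternatives (adjusted p 0.0018 to 0.034), and without control replicate 1, the lowest library, the log2 fold change was 0.67. In cTEC the level was 125, 144 and 160.3 CPM in controls and 226, 196 and 192 CPM without HOIL-1. These libraries did not overlap either, but the change missed the threshold (0.51, SE 0.198, adjusted p = 0.11). A fit of the cTEC libraries alone called it (adjusted p = 0.046, within 0.046 to 0.25 over the alternatives). The effects in the 2 cell types did not differ detectably (0.39, SE 0.281, adjusted p = 0.40).

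Mdm2 (Entrez 17246, chr10:117688875-117710758), the ligase that degrades p53 and a classic p53 target, was not called in any comparison. It stood at 121, 103 and 106 CPM in control and 74.2, 108 and 94.6 CPM in HOIL-deficient cTEC (-0.25, SE 0.163, adjusted p = 0.35). In mTEChi it stood at 123, 117 and 125 against 98.1, 120.3 and 126 CPM (-0.09, SE 0.163, adjusted p = 0.76). Control and HOIL-deficient libraries overlapped in both cell types.

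Cdkn1a (Entrez 12575, chr17:29090979-29100722) encodes p21, which blocks cyclin-dependent kinases. Control mTEChi held 552, 507 and 484 CPM and HOIL-deficient mTEChi 147, 128 and 149 CPM. Every HOIL-deficient library lay under every control, and the level fell 3.65-fold, from 514 ± 34.9 to 141 ± 11.6 CPM (SD, n = 3 each; -1.87, SE 0.233, adjusted p = 3.0e-04). In cTEC the values were 87.8, 45.9 and 55.1 CPM in controls and 59.3, 56.6 and 36.2 CPM in HOIL-deficient libraries. The groups overlapped, with control replicate 1 highest, and no change was called (-0.32, SE 0.230, adjusted p = 0.42). Without that control the cTEC value was 0.00113. The difference between the effects passed its test (-1.55, SE 0.324, adjusted p = 0.011). HOIL-deficient mTEChi still held more Cdkn1a RNA in every library than any cTEC library.

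Sfn and Btg2 also fell in mTEChi. Sfn (Entrez 55948, chr4:133600556-133602168) encodes 14-3-3 sigma, which holds cell cycle kinases in the cytoplasm, and stood at 444, 535 and 582 CPM in control and 192, 262 and 253 CPM in HOIL-deficient mTEChi (-1.14, SE 0.154, adjusted p = 4.7e-04). In cTEC it stood at 399, 373 and 403 against 441, 473 and 392 CPM (0.15, SE 0.152, adjusted p = 0.58). The mTEChi groups were apart, the cTEC groups overlapped, and the effects differed (-1.29, SE 0.216, adjusted p = 0.0041). Btg2 (Entrez 12227, chr1:134074865-134079155), an antiproliferative factor that binds mRNA deadenylases, stood at 228, 215 and 219 CPM in control and 88.6, 99.7 and 120.3 CPM in HOIL-deficient mTEChi (-1.10, SE 0.180, adjusted p = 0.0014). Its cTEC values were 207, 292 and 286 against 316, 219.5 and 264 CPM (0.03, SE 0.178, adjusted p = 1.0). Here too only the mTEChi groups were apart, and the difference of the effects passed (-1.13, SE 0.252, adjusted p = 0.015). The falls of Cdkn1a, Sfn and Btg2 in mTEChi were called under all 12 alternatives, males only included, with adjusted p of at most 0.0025, 0.0037 and 0.0091.

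**Figure D2:**
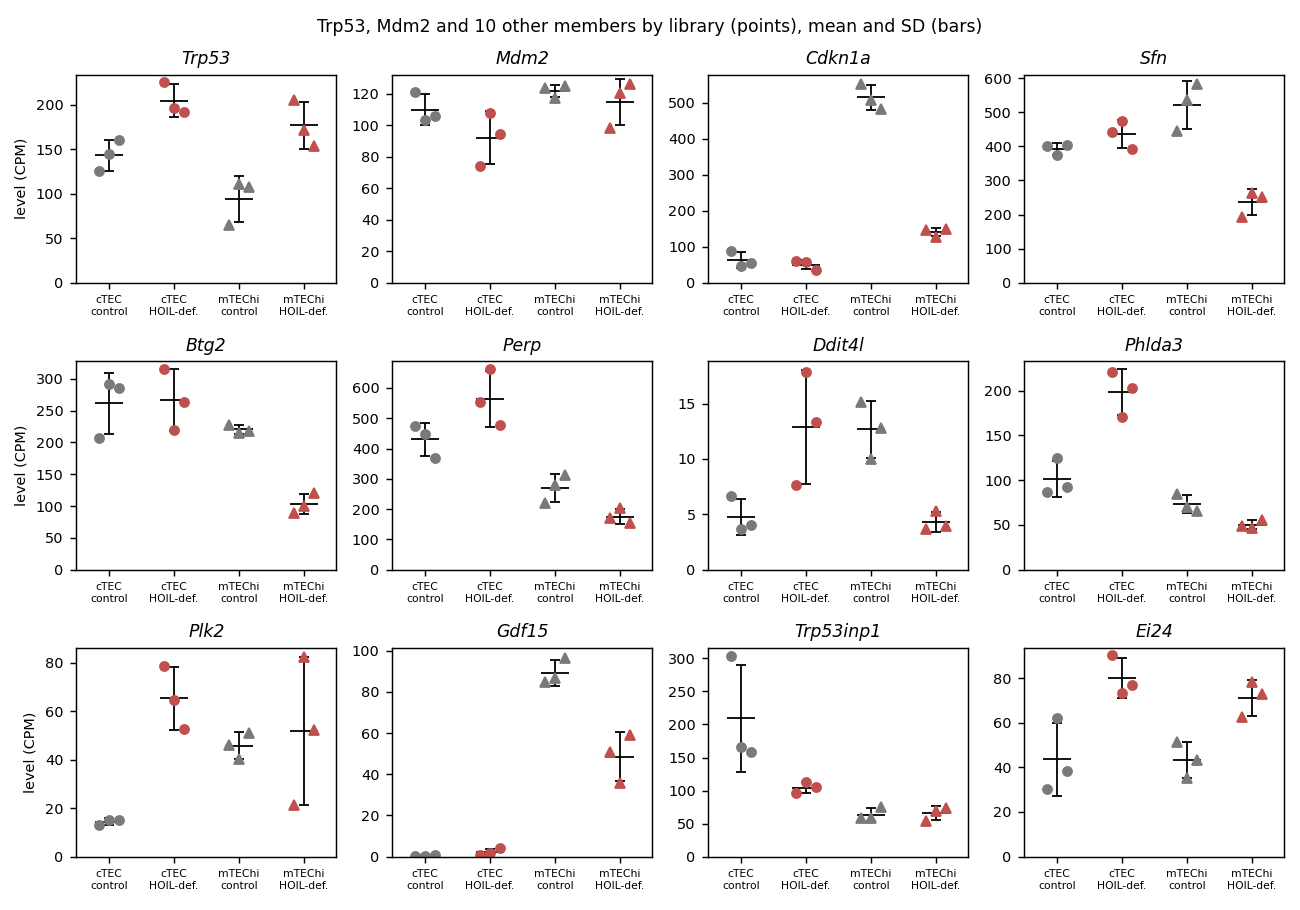
Level in CPM (y axis, from 0) of Trp53, Mdm2 and 10 other members in every library, by group along the x axis (circles cTEC, triangles mTEChi, grey control, red HOIL-deficient). Horizontal lines are means and bars SD of 3 libraries. Cdkn1a, Sfn and Btg2 dropped between the mTEChi groups and overlapped between the cTEC groups, while Plk2 was at 12.8 to 15.3 CPM in control and 52.5 to 78.4 CPM in HOIL-deficient cTEC.

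Among other members that act on the cell cycle, Plk2 (Entrez 20620, chr13:110395044-110400844), a polo-like kinase, rose in cTEC. It stood at 12.8, 15.1 and 15.3 CPM in control and 78.4, 64.6 and 52.5 CPM in HOIL-deficient cTEC, a 4.53-fold rise (2.18, SE 0.363, adjusted p = 0.0022). In mTEChi it was at 46.0, 40.2 and 51.1 against 21.1, 82.3 and 52.1 CPM (0.18, SE 0.343, adjusted p = 0.76). The cTEC groups were far apart, and HOIL-deficient mTEChi spread on both sides of their controls. The effects differed (-2.00, SE 0.495, adjusted p = 0.023), a call lost without mTEChi control replicate 3 (adjusted p = 0.055), and among males only (0.058). Ccng1, cyclin G1, was at 89.9, 114 and 108 CPM in control and 123, 184 and 152 CPM in HOIL-deficient mTEChi. Those libraries did not overlap, but the change missed the threshold (0.55, SE 0.210, adjusted p = 0.078). A fit of the mTEChi libraries alone called it (adjusted p = 0.046, within 0.046 to 0.26 over the alternatives). In cTEC Ccng1 was at 266, 244 and 181 against 232, 313 and 195 CPM (0.10, SE 0.208, adjusted p = 0.85). Gtse1, a G2 and S phase protein that can hold p53 in check, was at 13.9, 8.92 and 13.7 against 16.8, 19.3 and 18.3 CPM in cTEC (0.57, SE 0.296, adjusted p = 0.24) and at 5.60, 8.12 and 9.18 against 16.7, 9.83 and 14.8 CPM in mTEChi (0.85, SE 0.303, adjusted p = 0.063). Its HOIL-deficient libraries lay above the controls in both cell types without a call. It was called in mTEChi without HOIL-deficient replicate 2 (adjusted p = 0.045). Psrc1, a microtubule-binding protein, ranged from 2.01 to 15.1 CPM over all libraries and was not called in any comparison. DESeq2 called it higher in HOIL-deficient cTEC (adjusted p = 0.039).

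The HOIL effects on Perp and Phlda3 differed between the 2 cell types. Perp (Entrez 64058, chr10:18845071-18857073), a desmosomal membrane protein of stratified epithelia that can promote apoptosis, stood at 220.0, 279 and 312 CPM in control and 171, 204 and 153 CPM in HOIL-deficient mTEChi (-0.62, SE 0.177, adjusted p = 0.025). In cTEC it stood at 473, 449 and 369 against 553, 662 and 478 CPM (0.39, SE 0.176, adjusted p = 0.17). HOIL-deficient libraries lay under the controls in mTEChi and above them in cTEC, and the effects differed (-1.01, SE 0.25, adjusted p = 0.023). The mTEChi call was lost without mTEChi HOIL-deficient replicate 1 or 3 or mTEChi control replicate 2 or 3 (adjusted p 0.062 to 0.11), and among males only (0.099). That of the difference was lost without cTEC HOIL-deficient replicate 2 or cTEC control replicate 3 or mTEChi HOIL-deficient replicate 1 or 3 or mTEChi control replicate 3 (adjusted p 0.052 to 0.060), and among males only (0.057).

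Phlda3 (Entrez 27280, chr1:135766085-135769134) competes with the kinase Akt for membrane lipids. In cTEC it stood at 86.9, 125 and 92.3 CPM in controls and 221, 170.1 and 203 CPM without HOIL-1 (0.97, SE 0.177, adjusted p = 0.0037). In mTEChi it stood at 84.3, 69.8 and 66.0 against 49.0, 46.5 and 55.7 CPM (-0.54, SE 0.177, adjusted p = 0.045). The groups were apart in both cell types, in opposite directions, and the difference of the effects passed (-1.51, SE 0.25, adjusted p = 0.0040) under all 18 alternatives. The rise in cTEC was called under all 12 alternatives. The fall in mTEChi was lost without mTEChi HOIL-deficient replicate 1, 2 or 3 or mTEChi control replicate 1, 2 or 3 (adjusted p 0.055 to 0.14), and among males only (0.082) and with no low-count filter (0.058).

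Trp53inp1 (Entrez 60599, chr4:11156441-11174379), a nuclear stress protein that can promote p53 activity, was the single member that fell in cTEC. It stood at 303, 166 and 159 CPM in controls and 95.6, 113 and 105 CPM in HOIL-deficient cTEC (-1.003, SE 0.231, adjusted p = 0.013). In mTEChi it stood at 58.5, 57.8 and 74.7 against 54.0, 68.3 and 74.1 CPM (0.04, SE 0.231, adjusted p = 0.92). The cTEC groups were apart, and control replicate 1, which also had the highest thymocyte marker sum, was highest. Without that control the fall was still called, as under all 12 alternatives (adjusted p 0.0028 to 0.049). The difference of the effects missed the threshold (1.04, SE 0.326, adjusted p = 0.057), though it passed without cTEC control replicate 2 or 3 (adjusted p down to 0.044).

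Ei24 (Entrez 13663, chr9:36779153-36797334), a membrane protein of the endoplasmic reticulum with a part in autophagy, was higher without HOIL-1 in both cell types. It stood at 30.3, 62.1 and 38.3 against 90.2, 73.2 and 76.8 CPM in cTEC (0.88, SE 0.240, adjusted p = 0.029) and at 51.3, 35.3 and 43.5 against 62.6, 78.5 and 72.8 CPM in mTEChi (0.72, SE 0.239, adjusted p = 0.048). Both pairs of groups were apart, and the effects did not differ detectably (-0.16, SE 0.337, adjusted p = 0.83). The cTEC call was lost without cTEC HOIL-deficient replicate 1 or 3 or cTEC control replicate 1 or 3 (adjusted p 0.059 to 0.11), and among males only (0.080) and in the fit of the compared groups alone (0.052). The mTEChi call was lost without mTEChi HOIL-deficient replicate 1, 2 or 3 or mTEChi control replicate 1, 2 or 3 (adjusted p 0.065 to 0.15), and with DESeq2 (0.051), with RLE factors (0.072) and among males only (0.12).

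Bbc3, Pmaip1, Apaf1, Aen and Zmat3 were not called in either HOIL comparison. Bbc3, which encodes the BH3-only protein Puma, stood at 7.95, 12.3 and 13.8 against 8.83, 6.12 and 5.72 CPM in cTEC (-0.72, SE 0.336, adjusted p = 0.19) and 32.1, 21.5 and 16.1 against 16.5, 10.6 and 15.1 CPM in mTEChi (-0.72, SE 0.327, adjusted p = 0.13). Pmaip1, which encodes Noxa, another BH3-only protein, stood at 116, 148 and 145 against 154, 154 and 130.1 CPM in mTEChi (0.10, SE 0.241, adjusted p = 0.81) and at 2.62, 1.88 and 3.21 against 2.01, 1.75 and 4.34 CPM in cTEC (0.11, SE 0.322, adjusted p = 0.92). All 4 pairs of groups overlapped. Apaf1, the scaffold of the apoptosome, ranged from 9.91 to 30.8 CPM over the 12 libraries and was not called. The nuclease Aen stood at 55.4, 81.4 and 70.3 against 74.7, 48.4 and 67.7 CPM in cTEC (-0.12, SE 0.210, adjusted p = 0.81) and at 33.5, 40.8 and 38.7 against 31.4, 23.5 and 32.0 CPM in mTEChi (-0.38, SE 0.214, adjusted p = 0.23). In mTEChi its HOIL-deficient libraries all lay under the controls without a call. Zmat3, an RNA-binding zinc finger protein, ranged from 6.82 to 22.7 CPM and was not called.

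The death receptors were not called with HOIL-1. Fas, the receptor of Fas ligand, stood at 115, 119 and 127 CPM in control and 180.2, 189 and 181 CPM in HOIL-deficient mTEChi (0.61, SE 0.317, adjusted p = 0.19), with no overlap. It was called in the fit of the mTEChi libraries alone (adjusted p = 0.011, within 0.011 to 0.39 over the alternatives). In cTEC it stood at 42.6, 15.2 and 19.2 against 18.1, 9.52 and 20.8 CPM (-0.67, SE 0.331, adjusted p = 0.21), with control replicate 1 highest. Tnfrsf10b, the receptor of the ligand TRAIL, stood at 16.2, 20.4 and 17.3 against 35.9, 27.2 and 23.6 CPM in mTEChi, again apart (0.68, SE 0.237, adjusted p = 0.057), and at 10.1, 13.4 and 10.7 against 15.3, 14.7 and 12.9 CPM in cTEC (0.32, SE 0.241, adjusted p = 0.43). Eda2r, the receptor of an ectodysplasin isoform, was low throughout, at 0.561, 1.38 and 0.703 against 4.14, 1.85 and 1.38 CPM in cTEC (1.47, SE 0.599, adjusted p = 0.13) and 5.49, 4.58 and 8.10 against 2.64, 4.63 and 6.70 CPM in mTEChi (-0.37, SE 0.533, adjusted p = 0.67). Its groups overlapped in both cell types.

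Ddit4l changed in opposite directions in the 2 cell types. This gene (Entrez 73284, chr3:137623672-137628332) encodes an inhibitor of the growth kinase mTOR and stood at 6.64, 3.64 and 4.01 CPM in control and 7.60, 17.9 and 13.3 CPM in HOIL-deficient cTEC (1.43, SE 0.384, adjusted p = 0.027). In mTEChi it stood at 15.2, 9.99 and 12.8 against 3.66, 5.29 and 3.95 CPM (-1.55, SE 0.386, adjusted p = 0.013). The groups were apart in both, upward in cTEC and downward in mTEChi, and the effects differed under all 18 alternatives (-2.99, SE 0.544, adjusted p = 0.0061). The cTEC call was lost without cTEC HOIL-deficient replicate 2 or 3 or cTEC control replicate 2 or 3 (adjusted p 0.059 to 0.10), and among males only (0.074) and in the fit of the compared groups alone (0.057). The mTEChi call was lost without mTEChi HOIL-deficient replicate 1 or mTEChi control replicate 1 (adjusted p 0.051 to 0.052), and among males only (0.054).

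Gdf15 (Entrez 23886, chr8:70629393-70632470), a secreted stress cytokine, was higher in mTEChi than in cTEC, where its counts were few. Control mTEChi held 84.6, 87.0 and 96.4 CPM and HOIL-deficient mTEChi 50.7, 35.6 and 59.3 CPM. The groups were apart, but the change missed the threshold (-0.88, SE 0.344, adjusted p = 0.086). In cTEC the values were 0.374, 0.251 and 0.703 CPM in controls, where a library held 2 to 7 counts, and 0.783, 1.65 and 3.997 CPM in HOIL-deficient libraries (2.29, SE 0.566, adjusted p = 0.019). That rise, which depends on very few control counts, was lost without cTEC HOIL-deficient replicate 3 or cTEC control replicate 1 or 2 (adjusted p 0.056 to 0.096), and among males only (0.098). HOIL-deficient replicate 3 had the highest value there. The difference of the effects passed (-3.17, SE 0.662, adjusted p = 0.011) under all 18 alternatives. With DESeq2, among males only and in the fit of the mTEChi libraries alone the fall in mTEChi was called (adjusted p 0.0098 to 0.26 over all alternatives).

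The sestrins, which restrain mTOR and oxidative stress, were not called with HOIL-1. Sesn1 stood at 117, 125 and 127 against 131, 157 and 138 CPM in cTEC, apart but small (0.21, SE 0.174, adjusted p = 0.49), and at 16.9, 23.2 and 22.6 against 33.8, 30.4 and 23.1 CPM in mTEChi (0.47, SE 0.181, adjusted p = 0.081). Sesn2 stood at 11.3, 45.3 and 30.3 against 22.8, 24.3 and 13.8 CPM in cTEC (-0.51, SE 0.440, adjusted p = 0.50) and at 19.6, 47.1 and 36.4 against 18.4, 10.5 and 18.3 CPM in mTEChi (-1.13, SE 0.444, adjusted p = 0.089). In mTEChi its HOIL-deficient libraries lay under all controls, and DESeq2 and the fit of the mTEChi libraries alone called it (adjusted p 0.029 to 0.27 over the alternatives). Tigar, a phosphatase that slows glycolysis, stood at 0.654, 1.88 and 0.502 against 2.24, 4.95 and 1.59 CPM in cTEC (1.55, SE 0.615, adjusted p = 0.12) and 7.24, 3.54 and 4.71 against 3.96, 5.86 and 4.16 CPM in mTEChi (-0.15, SE 0.559, adjusted p = 0.89). At these few CPM the groups overlapped in both cell types.

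DNA repair members were not called with HOIL-1 either. Polk, a translesion DNA polymerase, stood at 34.8, 32.7 and 36.4 against 20.01, 36.4 and 30.8 CPM in cTEC (-0.25, SE 0.266, adjusted p = 0.61) and 11.4, 18.5 and 16.9 against 19.2, 30.4 and 21.5 CPM in mTEChi, where the groups were apart (0.60, SE 0.271, adjusted p = 0.14). Ercc5, a nuclease of nucleotide excision repair, stood at 26.1, 28.9 and 17.1 against 23.8, 22.6 and 23.7 CPM in cTEC (-0.04, SE 0.287, adjusted p = 1.0) and 19.1, 11.4 and 13.2 against 11.4, 20.8 and 18.1 CPM in mTEChi (0.21, SE 0.291, adjusted p = 0.66). Rrm2b, a p53-dependent ribonucleotide reductase subunit, stood at 21.4, 26.3 and 19.2 against 11.4, 25.7 and 25.1 CPM in cTEC (-0.10, SE 0.316, adjusted p = 0.93) and 9.81, 14.6 and 11.7 against 14.2, 20.4 and 24.1 CPM in mTEChi (0.70, SE 0.322, adjusted p = 0.14). Ercc5 and Rrm2b overlapped between the groups in both cell types. Dda1, which binds the DDB1 ubiquitin ligase adaptor, ranged from 92.9 to 142.8 CPM over the 12 libraries and was not called. Reads of Dda1, Apaf1 and Zmat3 could be shared with an overlapping gene (Ano8, Ikbip and 4930429B21Rik), since the counting strand is not given.

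Without a call, HOIL-deficient and control libraries were still apart for several members. In cTEC 9 members lay higher in every HOIL-deficient library and 1 lower, and over all genes these shares were 12.8% and 15.3%. The 4 uncalled ones in cTEC were Trp53, Sesn1, Gtse1 and Perp. In mTEChi 7 lay higher and 9 lower, against 22.3% and 22.5% of all genes. Uncalled there were Ccng1, Fas, Tnfrsf10b, Gtse1 and Polk on the higher side and Sesn2, Aen and Gdf15 on the lower side.

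In control mTEChi against control cTEC 11 members were higher and 10 lower of 30. That share, 70.0%, was near the 64.2% called among all genes, 37.8% higher and 26.4% lower. With RLE factors the members stood at 11 higher and 6 lower and with DESeq2 at 13 and 6, and RLE factors shifted the median of all genes by 0.19. In 13 members every control mTEChi library lay above every control cTEC library and in 10 below, against 41.2% and 29.6% of all genes. These controls are the same libraries as in the HOIL comparisons. In control mTEChi 22 of 23 thymocyte markers were lower (summed level 302 to 466.9 against 1877 to 6137 CPM), while 15 of 20 tested markers of dendritic cells and macrophages (1022 to 1384 against 46.9 to 61.2 CPM), 8 of 11 of B and plasma cells (132.5 to 148.8 against 14.3 to 49.8 CPM) and 10 of 12 of adipocytes (961.6 to 2296 against 29.1 to 52.1 CPM) were higher. The part of these cells in the member differences was not tested.

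mTEChi held far more RNA of the stress cytokine Gdf15 (7.59, SE 0.519, adjusted p = 3.7e-08), of Pmaip1 (5.70, SE 0.314, adjusted p = 5.7e-09) and of Cdkn1a (3.03, SE 0.244, adjusted p = 1.8e-07). Pmaip1 stood at 1.88 to 3.21 CPM in control cTEC and 115.6 to 147.7 CPM in control mTEChi. Fas (2.22, SE 0.335, adjusted p = 6.0e-05), Eda2r (2.79, SE 0.602, adjusted p = 0.0011) and Tigar (2.37, SE 0.619, adjusted p = 0.0041) were higher too, as were Plk2 (1.67, SE 0.359, adjusted p = 0.0011), Ddit4l (1.40, SE 0.385, adjusted p = 0.0057) and Bbc3 (1.03, SE 0.331, adjusted p = 0.014). Tnfrsf10b (0.66, SE 0.241, adjusted p = 0.028) and Sfn (0.41, SE 0.153, adjusted p = 0.030) were higher by smaller steps. The call of Bbc3 was lost without cTEC control replicate 1 or mTEChi control replicate 1 (adjusted p 0.055 to 0.075). That of Tnfrsf10b was lost without cTEC control replicate 1 or 3 or mTEChi control replicate 2 or 3 (adjusted p 0.054 to 0.10). That of Sfn was lost without cTEC control replicate 2 or 3 or mTEChi control replicate 2 or 3 (adjusted p 0.062 to 0.14), and among males only (0.070) and in the fit of the compared groups alone (0.061).

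cTEC held more RNA of Sesn1 (-2.56, SE 0.188, adjusted p = 7.2e-08), which stood at 117.3 to 126.6 CPM in control cTEC and 16.9 to 23.2 CPM in control mTEChi. Trp53inp1 (-1.72, SE 0.236, adjusted p = 2.7e-05), Ccng1 (-1.15, SE 0.212, adjusted p = 3.3e-04), Polk (-1.15, SE 0.273, adjusted p = 0.0022) and Aen (-0.87, SE 0.213, adjusted p = 0.0026) were also lower in mTEChi, and so was Perp (-0.67, SE 0.177, adjusted p = 0.0045). The remaining 4 lower calls did not hold under every alternative. Trp53 (-0.60, SE 0.200, adjusted p = 0.016) was lost without cTEC control replicate 3 or mTEChi control replicate 1 (adjusted p = 0.061), and with DESeq2 (0.091), with RLE factors (0.090) and in the fit of the compared groups alone (0.061). Rrm2b (-0.89, SE 0.323, adjusted p = 0.027) was lost without cTEC control replicate 2 or mTEChi control replicate 1 or 3 (adjusted p 0.073 to 0.10), and with DESeq2 (0.067) and with RLE factors (0.076). Phlda3 (-0.46, SE 0.176, adjusted p = 0.032) was lost without cTEC control replicate 2 or mTEChi control replicate 2 or 3 (adjusted p 0.085 to 0.17), and with DESeq2 (0.20), with RLE factors (0.19) and in the fit of the compared groups alone (0.074). Ercc5 (-0.72, SE 0.291, adjusted p = 0.042) was lost without cTEC control replicate 1 or 2 or mTEChi control replicate 2 or 3 (adjusted p 0.090 to 0.15), and with DESeq2 (0.12), with RLE factors (0.12), among males only (0.050) and in the fit of the compared groups alone (0.056).

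**Figure D3:**
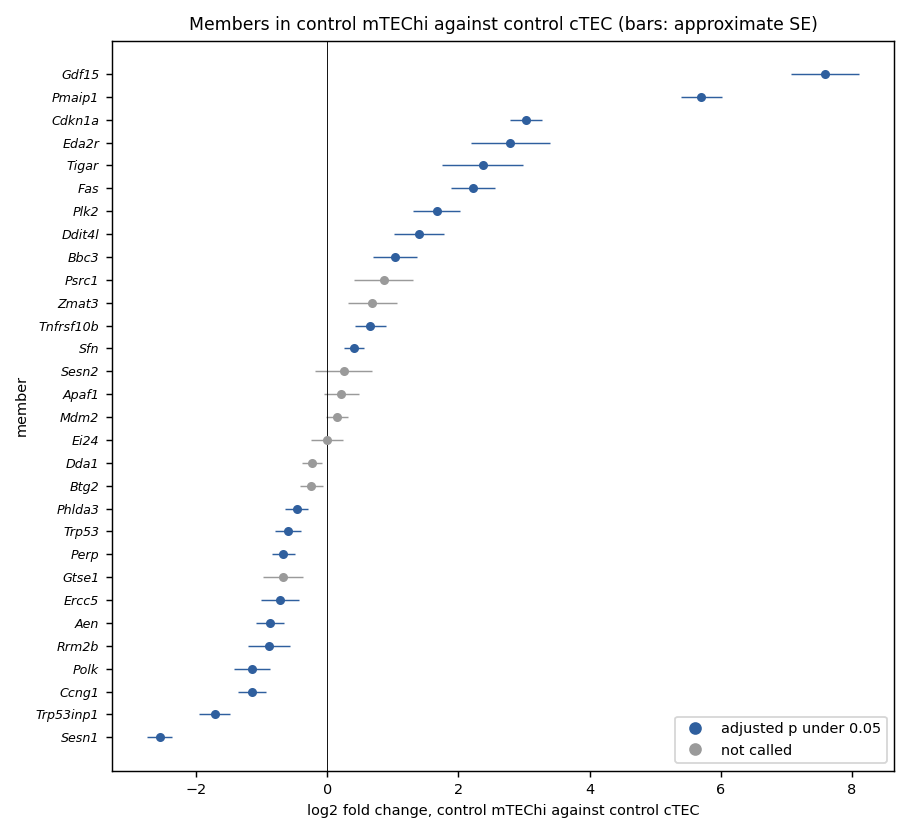
Log2 fold change of control mTEChi against control cTEC (x axis) for the 30 members, in the order of the change. Points are genes, bars the approximate SE, blue marks adjusted p under 0.05 and grey the rest. Gdf15 at 7.59, Pmaip1 at 5.70 and Cdkn1a at 3.03 head the plot, and Sesn1 at -2.56 and Trp53inp1 at -1.72 close it.

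Levels between genes were compared per gene length, as group means of CPM per kilobase (RPKM). In control mTEChi Sfn (323 RPKM) and Cdkn1a (254 RPKM) led the members, followed by Perp (142), Gdf15 (82.4) and Btg2 (71.6). In HOIL-deficient mTEChi Sfn (146 RPKM) still led, and Cdkn1a (69.6 RPKM) stood behind Fas (102), Trp53 (94.6) and Perp (92.4). In control cTEC Sfn (243 RPKM) and Perp (226 RPKM) led, and Eda2r (0.152 RPKM) was lowest. No test was made between genes.

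The regulators of p53 were called about as often as all genes. Of 20 tested, 1 was higher and 2 lower in HOIL-deficient cTEC (15.0%, against 12.1% of all genes; median -0.26), and 1 higher and 4 lower in mTEChi (25.0% against 19.9%; median -0.04). Ep300, the p300 acetyltransferase that coactivates p53, fell in cTEC (-0.99, SE 0.212, adjusted p = 0.0089) and in mTEChi (-0.80, SE 0.211, adjusted p = 0.017). The ubiquitin ligase gene Rchy1 (Pirh2), whose product targets p53, fell in mTEChi (-0.77, SE 0.177, adjusted p = 0.0090). The 1 higher there was the kinase gene Chek1 (1.49, SE 0.396, adjusted p = 0.018). Hipk2, another kinase gene, fell in cTEC (-1.03, SE 0.292, adjusted p = 0.034). Trp73, a p53 relative, stood at 3.74, 5.02 and 3.61 against 13.8, 8.74 and 14.5 CPM in cTEC (1.58, SE 0.403, adjusted p = 0.022) and at 8.87, 5.21 and 6.53 against 3.45, 3.69 and 1.62 CPM in mTEChi (-1.24, SE 0.408, adjusted p = 0.046). It was called higher in cTEC and lower in mTEChi, and the effects differed under all 18 alternatives (-2.82, SE 0.573, adjusted p = 0.0098). Trp63, which encodes p63, the relative that maintains epithelial progenitors, is named outside the rule for these lists and stood at 213, 442 and 306 against 369, 328 and 332 CPM in cTEC (0.10, SE 0.218, adjusted p = 0.86) and 47.0, 65.8 and 58.6 against 45.2, 54.5 and 45.8 CPM in mTEChi (-0.24, SE 0.222, adjusted p = 0.49). The Ep300 call in mTEChi was lost without HOIL-deficient replicate 2 or 3 and among males only (highest adjusted p 0.064). The Chek1 call was lost without HOIL-deficient replicate 1 or 2 or control replicate 1 or 3 (highest 0.087). The Hipk2 call was lost without any HOIL-deficient library or control replicate 2 or 3, among males only and in the fit of the cTEC libraries alone (highest 0.13). The Trp73 call in cTEC was lost without HOIL-deficient replicate 1 or 3, without control replicate 1 or 3 and among males only (highest adjusted p 0.082). That in mTEChi was lost with any 1 library of the comparison left out, among males only, with no low-count filter and in the fit of the compared groups alone (highest adjusted p 0.16).

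A list of 30 further p53 targets, 29 of them tested, gave calls in both directions, and in mTEChi its share of calls was near that of all genes. In cTEC 3 were higher and 3 lower (20.7%, against 12.1% of all genes; median -0.03), and in mTEChi 3 higher and 4 lower (24.1% against 19.9%; median -0.25). Sat1, a polyamine acetyltransferase, rose in cTEC (0.68, SE 0.153, adjusted p = 0.011), where the spindle protein gene Ckap2 (1.02, SE 0.278, adjusted p = 0.029) and the damage sensor gene Ddb2 (-0.75, SE 0.203, adjusted p = 0.028) also passed. In mTEChi Ier5, an immediate early response gene, fell (-1.005, SE 0.177, adjusted p = 0.0021), as did the receptor gene Notch1 (-1.14, SE 0.242, adjusted p = 0.0057), while Trp53i11 rose (1.09, SE 0.236, adjusted p = 0.0063). Trp53i11 was called lower in cTEC (-0.82, SE 0.234, adjusted p = 0.036), and Ckap2 higher in mTEChi as well (1.06, SE 0.287, adjusted p = 0.020). The Ckap2 call in cTEC was lost without HOIL-deficient replicate 1 or 2 or control replicate 2 or 3 and in the fit of the cTEC libraries alone (highest adjusted p 0.12). The Ddb2 call was lost without HOIL-deficient replicate 2 or control replicate 1 or 3, among males only and in the fit of the cTEC libraries alone (highest adjusted p 0.10). The Trp53i11 call in cTEC was lost without control replicate 1 or 3 or any HOIL-deficient library, among males only and in the fit of the cTEC libraries alone (highest adjusted p 0.12). That of Ckap2 in mTEChi was lost without HOIL-deficient replicate 1 or 2 or control replicate 1 or 3 (highest 0.093).

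Most other CDK inhibitors changed in mTEChi. Of 7 tested in mTEChi, 4 were lower and 2 higher (85.7%, against 19.9% of all genes; median -1.01), and in cTEC 1 was higher and 0 lower (14.3% against 12.1%; median 0.36). Cdkn1c, which encodes p57, fell in mTEChi from 483, 442 and 454 CPM in controls to 173, 233 and 279 CPM (-1.01, SE 0.230, adjusted p = 0.0086). Cdkn2b, which encodes p15, fell from 119, 163 and 175 to 59.9, 73.1 and 58.3 CPM (-1.26, SE 0.307, adjusted p = 0.012). Cdkn1b, which encodes p27, fell from 14.8, 8.02 and 9.31 to 3.05, 4.35 and 3.95 CPM (-1.50, SE 0.374, adjusted p = 0.014). Cdkn2a, the locus of p16 and of Arf, an inhibitor of Mdm2, fell from 16.8, 6.66 and 7.13 to 1.32, 1.04 and 0.846 CPM (-3.25, SE 0.885, adjusted p = 0.021). In all 4 the HOIL-deficient libraries lay under the controls. Cdkn2c, which encodes p18, rose (1.09, SE 0.269, adjusted p = 0.013), and so did Cdkn3, a phosphatase gene whose RNA is known to rise in dividing cells (1.68, SE 0.355, adjusted p = 0.0056). The Cdkn1c and Cdkn3 calls held under all 12 alternatives. The Cdkn1b call was lost without HOIL-deficient or control replicate 1 (highest adjusted p 0.066), and the Cdkn2b call without control replicate 3 and among males only (highest 0.052). The Cdkn2a call was lost without any single HOIL-deficient library or control replicate 1 (highest 0.13), and the Cdkn2c call without control replicate 3 (0.060).

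Cell division genes of the kind that p21 and DREAM lower were higher in HOIL-deficient mTEChi. Of 28 tested, 24 were higher and 0 lower, with a median of 1.49, against 11.3% of all genes higher and a median of -0.03. Over the 12 alternatives 20 to 26 were higher and 0 lower. This list, like the others, was chosen with earlier results of these data known. Kif20a, a mitotic kinesin, had the smallest p and stood at 39.2, 38.3 and 33.8 CPM in control and 89.0, 85.6 and 75.8 CPM in HOIL-deficient mTEChi (1.17, SE 0.149, adjusted p = 3.4e-04). Ccnb2, a mitotic cyclin, stood at 13.5, 27.6 and 26.6 CPM in control and 92.1, 118 and 90.5 CPM in HOIL-deficient mTEChi (2.15, SE 0.324, adjusted p = 9.0e-04). Cdc20, an activator of the anaphase-promoting complex, stood at 15.5, 30.3 and 28.3 against 101, 81.0 and 79.3 CPM (1.82, SE 0.259, adjusted p = 6.2e-04), and the mitotic transcription factor gene Foxm1 at 2.57, 4.48 and 4.96 against 18.0, 12.2 and 15.1 CPM (1.91, SE 0.313, adjusted p = 0.0014). The spindle factor gene Tpx2 stood at 32.2, 33.3 and 34.2 against 72.2, 89.15 and 78.7 CPM (1.27, SE 0.196, adjusted p = 0.0010). The groups were apart for each of these genes. Control replicate 1, the library with the highest mitochondrial share, was the lowest for Ccnb2, Cdc20, Foxm1 and Tpx2 and the highest control for Kif20a. In cTEC 4 of the 28 were higher and 0 lower (14.3%, against 12.1% of all genes; median -0.04). Kif20a stood there at 82.3, 66.5 and 68.0 against 136, 132 and 136 CPM (0.90, SE 0.147, adjusted p = 0.0020) and was called under all 12 alternatives, and the spindle factor gene Tpx2 (0.94, SE 0.193, adjusted p = 0.0072) and Cdc20 (1.07, SE 0.25, adjusted p = 0.014) were called too. The Cdc20 call in cTEC was lost without control replicate 2 or 3 (highest adjusted p 0.061). The difference of the effects passed above 0 for 11 of the 28 (39.3%) and below 0 for none. Of all genes 5.97% passed above 0 and 3.86% below. Over the 18 alternatives 5 to 14 of the 28 passed above 0.

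In control mTEChi against control cTEC 18 of these 28 genes were lower and 1 higher (67.9% called). Of all genes 64.2% were called there, 26.4% lower and 37.8% higher. Over the 13 alternatives 14 to 19 of the list were lower and 1 to 2 higher. For the HOIL effect in cTEC the median of this list ran from -0.25 to 0.45 over the alternatives. Dividing thymocytes also express these genes, and in cTEC the thymocyte marker sum was lower without HOIL-1, as given above. In control cTEC that sum was 1877 to 6137 CPM. In mTEChi that sum was 302 to 466.9 CPM in controls and 376.6 to 594.5 CPM in HOIL-deficient libraries, with overlap. The part of thymocytes in any of these differences was not tested.

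Genes of 2 stress programmes were counted in the same way. Of 21 integrated stress response genes 5 were higher and 3 lower in mTEChi (38.1%, against 19.9% of all genes; median 0.23), and in cTEC 1 and 2 (14.3% against 12.1%; median -0.07). Nupr1, a stress-induced chromatin protein gene, fell (-1.99, SE 0.322, adjusted p = 0.0013), as did the transcription factor gene Cebpb (-1.17, SE 0.186, adjusted p = 0.0012), while Psat1, an enzyme of serine synthesis, rose (1.68, SE 0.232, adjusted p = 5.4e-04). Of 28 immediate early and dissociation stress genes 1 was higher and 5 lower in mTEChi (21.4%, against 19.9% of all genes; median -0.57), and 2 and 1 in cTEC (10.7% against 12.1%; median -0.02), both shares near those of all genes. Jund (-1.26, SE 0.196, adjusted p = 0.0010), Fosb (-2.30, SE 0.447, adjusted p = 0.0036) and Klf4 (-1.64, SE 0.333, adjusted p = 0.0045), transcription factors of the early response, were among the 5 in mTEChi. The 1 higher there was Nr4a1 (1.44, SE 0.295, adjusted p = 0.0047), called under all 12 alternatives. In cTEC Hspb1 (2.06, SE 0.368, adjusted p = 0.0033) and Hsph1 (0.89, SE 0.226, adjusted p = 0.022) rose, and Jund was called lower (-0.70, SE 0.194, adjusted p = 0.031). The Hspb1 call in cTEC held under all 12 alternatives. That of Hsph1 was lost without HOIL-deficient or control replicate 2 or 3, among males only and in the fit of the cTEC libraries alone (highest adjusted p 0.093). That of Jund was lost without HOIL-deficient or control replicate 3, among males only and in the fit of the cTEC libraries alone (highest adjusted p 0.13). Over the alternatives 3 to 12 of the 28 genes were lower in mTEChi and 1 higher. Such genes respond to the handling of tissue, which the labels do not describe by group, and their part in the fall of Cdkn1a and Btg2 was not tested.

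**Figure D4:**
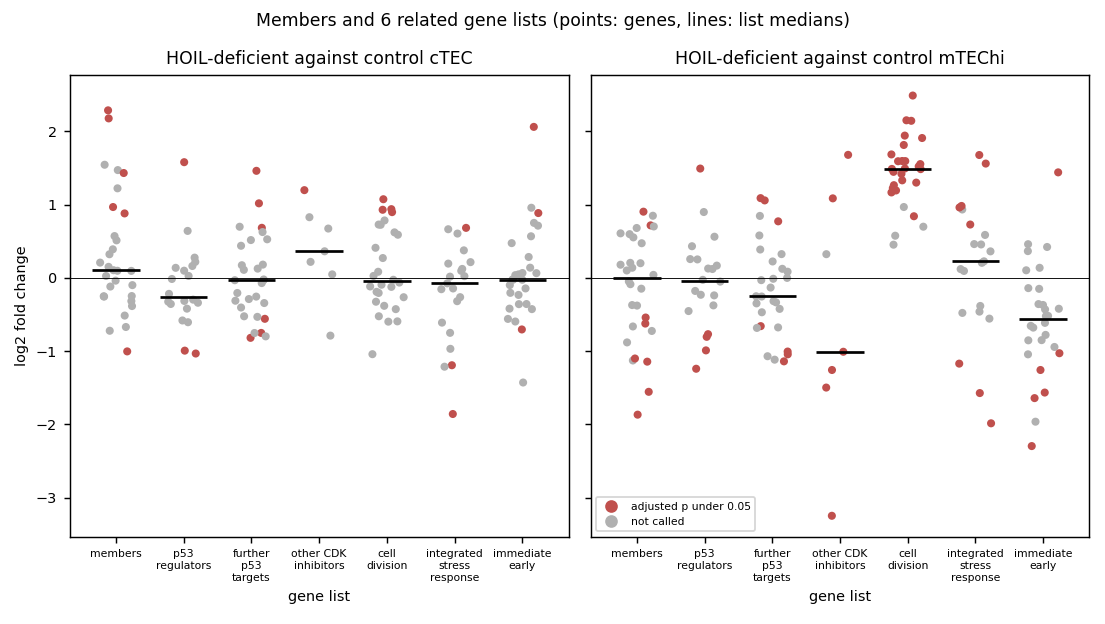
Log2 fold change of HOIL-deficient against control libraries (y axis) in cTEC (left) and mTEChi (right) for the members and 6 related gene lists (x axis). Points are genes, red where adjusted p was under 0.05, and black lines are list medians. In mTEChi the cell division genes have a median of 1.49 with 24 of 28 called, and the other CDK inhibitors a median of -1.01. The members centre near 0 in both panels. The lists were chosen with earlier results of these data known.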

How the data were processed

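Bulk RNA of FACS-sorted cTEC and mTEChi was made into cDNA with SMART-Seq v4 and Nextera XT kits, then sequenced from both ends, per the labels' protocols. The authors deposited 1 file of raw counts per gene and library, with gene lengths. Reads were counted with featureCounts on mm10, per the submitters' processing notes, and the aligner, the annotation, the versions and the strand setting were not given in those sources. RefSeq's gene table for GRCm38.p6, which mm10 names, gave symbols and positions. The deposited table that joins the libraries was not used because it holds the same counts.

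Genes passing filterByExpr over the 4 groups were fitted in 1 model of all 12 libraries (R 4.3.3, edgeR 4.0.16 robust quasi-likelihood, TMM factors 0.878 to 1.09) with 1 coefficient per group, and 4 contrasts were tested: HOIL deficiency in cTEC, in mTEChi, the difference of these effects, and control mTEChi against control cTEC. The SE was the absolute log2 fold change over the root of F. DESeq2 1.42.0 was an alternative. No replicate block was used, since the labels do not tie replicate numbers to mice. Trp53, Cdkn1a, Mdm2, every member called in a comparison and every member whose libraries did not overlap with HOIL deficiency are given by library, other members by their range, and at most 3 genes with the smallest p per related list and HOIL comparison (up to 6 where called). Some genes named for 1 HOIL comparison are also given for the other. Members and lists were chosen with earlier results of these data known.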

Additional observations from a re-analysis of the deposited data

Results flagged for a closer look

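The effect of HOIL deficiency differed between mTEChi and cTEC, by the interaction contrast of the edgeR fit, for 8 of the 30 members. Each value is the log2 fold change in mTEChi minus that in cTEC. For Cdkn1a it was -1.55, SE 0.324, adjusted p = 0.011, with a fall in mTEChi and no called change in cTEC. Sfn (-1.29, SE 0.216, adjusted p = 0.0041) and Btg2 (-1.13, SE 0.252, adjusted p = 0.015) had the same form. Phlda3 (-1.51, SE 0.25, adjusted p = 0.0040) and Ddit4l (-2.99, SE 0.544, adjusted p = 0.0061) were called higher in cTEC and lower in mTEChi. Perp (-1.01, SE 0.25, adjusted p = 0.023) was called lower in mTEChi, with cTEC libraries on the other side of their controls. Plk2 (-2.00, SE 0.495, adjusted p = 0.023) and Gdf15 (-3.17, SE 0.662, adjusted p = 0.011) were called higher in cTEC alone. Under all 18 alternatives 6 of these stayed called. Perp passed under 12 of 18 and Plk2 under 16 of 18.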

How the results depend on the processing

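Among single genes, 1509 recomputed values over 119 results gave 1263 on the same side of the threshold. In 235 a call of the main fit was lost, in 9 a call was gained and in 2 the sign was reversed. Both reversals were near 0 and not called: with 1 library left out, Cdkn1a in cTEC ran from -0.50 to 0.00113 (without control replicate 1), and Mdm2 in mTEChi from -0.17 to 0.021 (without HOIL-deficient replicate 1).

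Of the counts, members called in cTEC went from 6 to 3 among males only and to 3 to 5 with 1 library left out (3 without HOIL-deficient replicate 3). Members called in mTEChi went from 8 to 5 among males only, to 4 to 7 with 1 library left out (4 without HOIL-deficient replicate 1) and to 12 in the fit of the mTEChi libraries alone. The 8 members of the difference became 6 to 10, and the 21 of the cell type comparison 16 to 18. Over all genes, the cTEC count went from 2342 to 1540 among males only, to 1395 in the fit of the cTEC libraries alone and to 1340 to 2306 with 1 library left out (1340 without control replicate 3). The mTEChi count went from 3858 to between 1944 and 3116 with 1 library left out (1944 without control replicate 1), and that of the difference from 1908 to 1030 among males only and 949 to 2088 with 1 library left out (949 without mTEChi control replicate 3). Males only and the left-out libraries use fewer samples, and the cause of the other moves was not tested.

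A replicate block gave 5 members in cTEC, 6 in mTEChi, 8 for the difference and 20 for the cell types. Of the calls given above, the block lost those of Phlda3, Ei24 and, among the related lists, Trp73 in mTEChi. It also lost the cTEC calls of Ddit4l, Trp53i11 and Jund and the cell type call of Ercc5. Some calls of the related lists not given above were lost as well, such as those of Cdk1, Epha2, Phgdh and Trib3 in cTEC and of Hspb1 in mTEChi. Same-numbered control and HOIL-deficient libraries deviated together with correlations of -0.20 to 0.02 in cTEC and -0.10 to -0.02 in mTEChi, so the numbers do not pair them. Each HOIL-deficient cTEC library correlated best with the mTEChi library of its number (0.08 to 0.14), which is a hint from the data. Of the controls only replicate 2 did so (0.14), and control cTEC replicates 1 and 3 correlated best with a mTEChi library of another number. With a block by genotype and number the difference had 8 members and the cell types 20.

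Precision is limited by 3 libraries a group and, for Gdf15, Eda2r and Tigar in cTEC, by few counts: 2 to 7, 6 to 11 and 5 to 15 per control library. The 2 female libraries stand in HOIL-deficient groups, so sex and genotype are partly confounded, and males only leaves 2 libraries in those groups.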
